A study of Oryza sativa with 3 samples.

Results

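The respiratory burst oxidase homologs (RBOH) are the plant NADPH oxidases. They sit in the plasma membrane, take electrons from NADPH in the cytosol and pass them to oxygen outside the cell, which yields superoxide and then hydrogen peroxide. Calcium binding to their N-terminal EF-hands, phosphorylation by calcium-dependent and receptor-like cytoplasmic kinases, and binding of Rac/ROP small GTPases are known ways by which they are activated. In roots they are known for their part in root hair growth, defence and, in rice, the formation of air spaces in the cortex. The 9 loci named RbohA to RbohI were taken as the family by their locus IDs. All 9 were on the array with 17 probes, among 29859 loci and 42418 gene probes. The only probe of RbohD was too dim to test, and 1 probe of RbohG was left out because the scanner software marked a spot of it, so 8 of the 9 genes and 15 of the 17 probes were tested.

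Transcript levels were measured in roots of rice seedlings (Oryza sativa, cultivar TN67), aged 6 days and raised in darkness. The treated roots were exposed to 1 mM vanadate, a vanadium oxyanion with a likeness to phosphate, and the control roots to water. Each of 3 biological replicates was hybridised on 1 two-channel Agilent array, with vanadate-treated RNA in Cy5 and water-treated RNA in Cy3. RNA from 1 h and 3 h of exposure was pooled before labelling, so the times cannot be told apart. No array had exchanged dyes, so dye and treatment cannot be told apart either. Log2 ratios are vanadate over water throughout, with n = 3 arrays, and the number of arrays limits their precision.

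Replicates 1 and 2 were hybridised on the same slide and replicate 3 on a different slide. All 4 probes of 3 loci taken from background knowledge as root markers were well above background in both channels of every array. Of these 3 loci, Os02g0662000 rose on its brighter probe at a log2 ratio of 0.68, and Os02g0745100 and Os03g0107300 fell at -2.06 and -1.02, while the other probe of Os02g0662000 was lower at -0.28. The log2 of the summed level of the root loci was 17.06 to 17.65 in water and 17.74 to 17.92 in vanadate. Most of that sum came from the brighter probe of Os02g0662000, at a mean log2 level of 17.10 in water and 17.78 in vanadate. Of the 4 root probes, 1 was called higher and 3 lower, while 28.4% of all tested probes were called higher and 20.8% lower. Of 16 probes of 3 loci taken as green shoot markers, 4, 2 and 15 were well above background in the water channel of replicates 1, 2 and 3. In the vanadate channel the numbers were 6, 7 and 9. The log2 of the summed level of these loci in water was 8.59, 8.76 and 11.36 on replicates 1, 2 and 3, against 8.71, 8.89 and 9.22 in vanadate. The water sample of replicate 3 therefore stood apart from the others in green shoot signal. On replicates 1, 2 and 3 the log2 ratio was 0.29, -0.13 and -2.93 for Os09g0346500 and 0.23, 0.78 and -1.70 for Os01g0600900. For Os12g0274700 it was -0.21, -0.09 and -0.21. In limma 0 of the 3 green shoot loci were called, at adjusted p of 0.119 to 0.678. That test of the mean over arrays cannot decide on a signal in 1 sample, since such a signal widens the spread. Each tested oxidase's log2 ratio is given below with and without replicate 3. In such bulk tissue fewer cells of a type and less RNA per cell cannot be told apart.

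RbohH and RbohI rose more than 3-fold under vanadate, while RbohF was 1.65-fold and RbohA 1.44-fold lower. These 4 genes were called the same way under all 15 alternative settings that were run. The settings overlap, and several of them leave the log2 ratio unchanged, so the 15 are not independent checks. RbohB was called lower and RbohG higher, each by a small margin and with probes that disagreed. RbohC and RbohE were not called. Of the 8 tested genes 3 were thus called higher and 3 lower (limma, adjusted p under 0.05). Among all 22140 tested genes 29.1% were called higher and 20.7% lower, 49.8% in all. The oxidases' shares were 37.5% in each direction and 75% in all, over 8 genes and with no test of the difference. The 3 called higher include RbohG, whose probes disagreed, so no excess of rises in the family is read from these shares. The median log2 ratio was 0.11 over the 8 oxidases and 0.02 over all tested genes. Each of the 8 tested genes was above background in both channels on every array, so none entered the test through 1 channel alone.

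**Figure D1:**
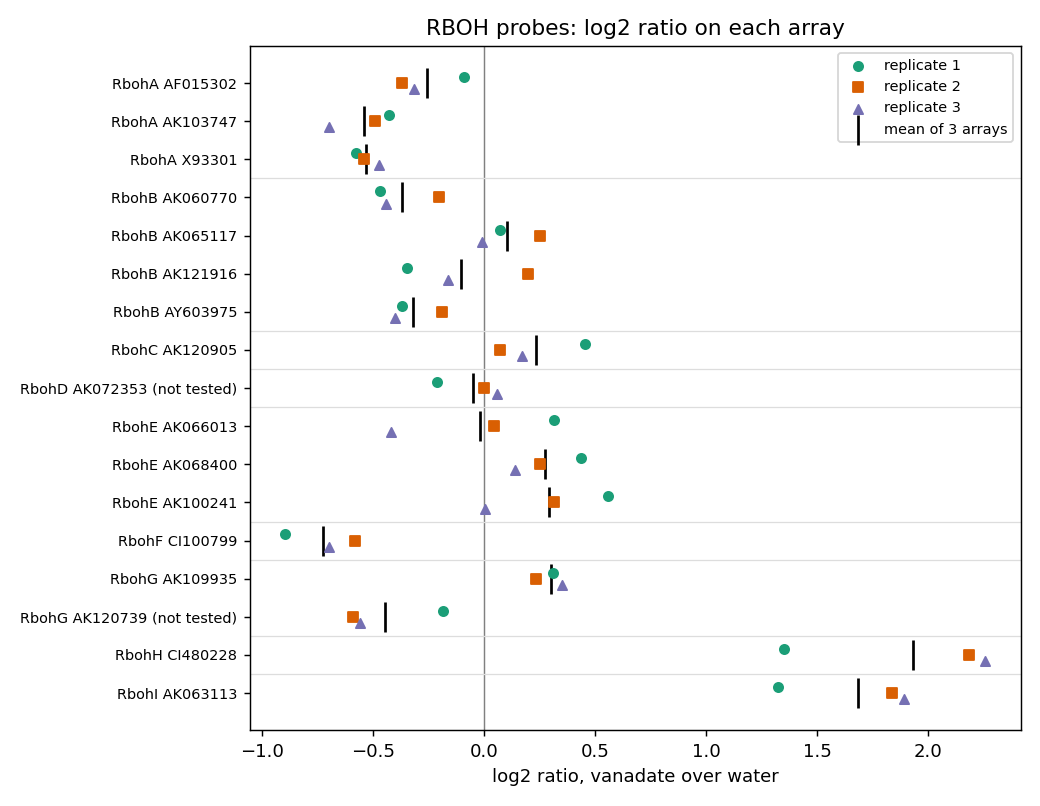
Log2 ratio of vanadate over water (horizontal axis) for each of the 17 RBOH probes (rows, by gene and probe name), with 1 symbol per replicate and a vertical bar for the mean of 3 arrays. RbohH and RbohI lie between 1.32 and 2.26 on every array, while all RbohA and RbohF values lie below 0 and the 2 probes of RbohG lie on opposite sides of 0.

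RbohH (Os12g0541300) is the rice oxidase known for the formation of air spaces in roots short of oxygen. Its normalized log2 level in water was 8.21, 7.28 and 8.41 on replicates 1, 2 and 3. Under vanadate it was 9.56, 9.47 and 10.67. Every vanadate level was above every water level, a separation that 23.8% of all tested genes showed. The log2 ratio was 1.35, 2.18 and 2.26 on the 3 arrays, so replicate 1 showed the smallest rise. Its mean of 1.93 ± 0.18 (SE, limma adjusted p = 0.000333) is a 3.81-fold rise, with a 95% confidence interval of 2.82 to 5.15. Of all tested genes, 3.12% had a log2 ratio as high as that of RbohH or higher. The gene is read by a single probe, CI480228, built on expressed sequence tags by its name. Within the slide of replicates 1 and 2, which is also the value without replicate 3, the log2 ratio was 1.77 (adjusted p = 8.45e-05 in limma).

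RbohI (Os11g0537400) was the other oxidase with a large rise. In water its normalized log2 level was 7.34, 7.23 and 6.98 on replicates 1, 2 and 3, and under vanadate it was 8.67, 9.07 and 8.87. The levels of the channels did not overlap, and the water levels spread by less than those of RbohH. The log2 ratio was 1.32, 1.84 and 1.89, with a mean of 1.68 ± 0.13 (SE, limma adjusted p = 0.000133). That is a 3.21-fold rise with a 95% confidence interval of 2.60 to 3.97, and 4.18% of all tested genes had a log2 ratio at least as high. Without replicate 3 the log2 ratio was 1.58 (adjusted p = 3.25e-05 in limma). Its single probe, AK063113, is assigned to a UTR by its name.

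The sizes of the RbohI and RbohH rises depended on how background was treated. In water the RbohI spot exceeded the local background by 185, 191 and 101.5 intensity units on replicates 1, 2 and 3. The RbohH spot exceeded it by 330, 200 and 313. Negative control spots, which carry no rice sequence, exceeded it in water by medians of 97, 93 and 52. In the vanadate channel their medians were 4.5, 4 and 3, far lower than in water. With the scanner software's processed signals, in which the software had subtracted background itself, the log2 ratio of RbohI was 2.42, a 5.34-fold rise. That of RbohH was 2.23, a 4.68-fold rise. The order of the pair therefore turned with the processed signals. Those signals also carry the software's dye normalization, whose part in the turn was not tested. With the offset of the background correction set to 0, RbohH was at 2.17 and RbohI at 2.15. Without background correction they were at 1.82 and 1.52. RbohH was thus the higher in both, but with the offset at 0 the pair was nearly equal. The part of background treatment in the order of the pair was not tested. On replicates 1, 2 and 3 RbohH had the larger ratio in the reported values, by 0.03 to 0.37 on the log2 scale, a mean difference of 0.25 ± 0.19 (SD, n = 3).

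**Figure D2:**
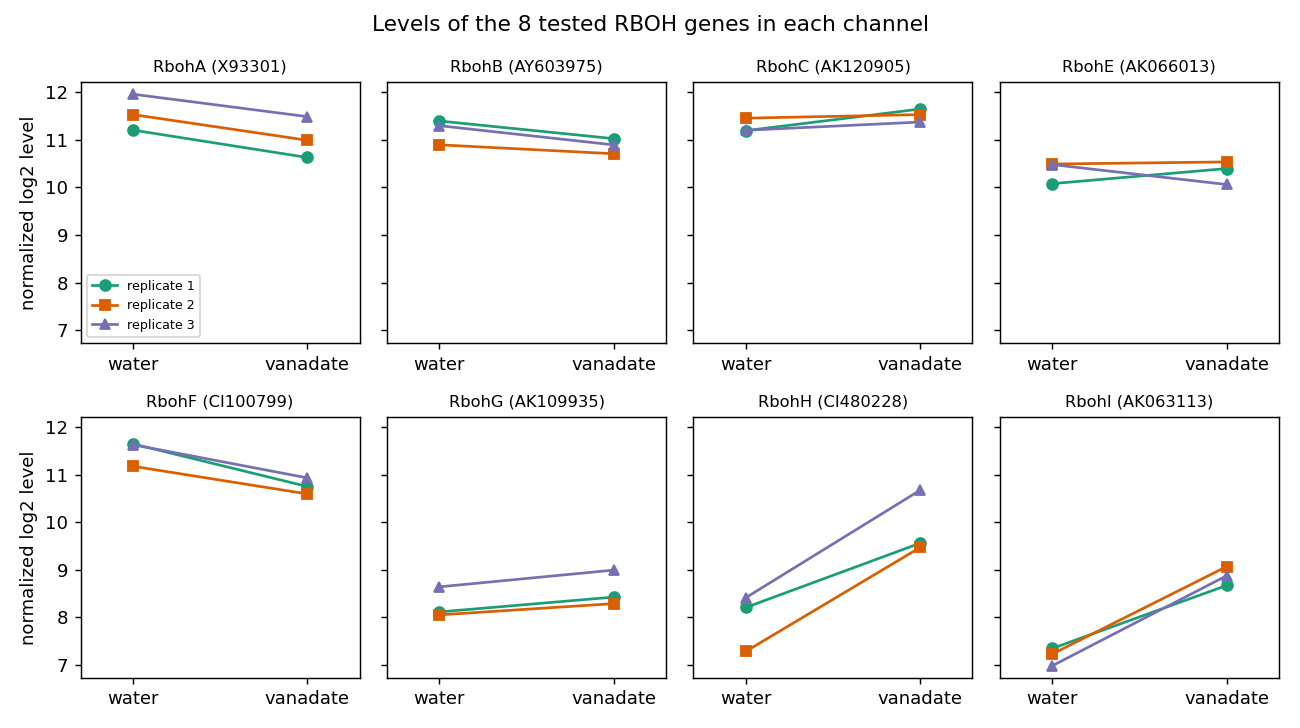
Normalized log2 level (vertical axis) of the representative probe of each tested RBOH gene in the water and vanadate channels, with a line joining the channels of 1 array. The lines of RbohH and RbohI rise on all 3 arrays, and those of RbohC and RbohG rise on all 3 by less. Those of RbohA, RbohB and RbohF fall on all 3, while the lines of RbohE run in different directions. Levels are not comparable between panels, since each probe binds with its own strength.

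RbohF (Os08g0453700) showed the largest fall of the family. Its normalized log2 level was 11.64, 11.17 and 11.63 in water and 10.75, 10.59 and 10.93 under vanadate on replicates 1, 2 and 3. Every vanadate level was below every water level, as for 16.6% of all tested genes. The log2 ratio was -0.90, -0.58 and -0.70, with a mean of -0.72 ± 0.09 (SE, limma adjusted p = 0.00116), which is 1.65-fold lower. Of all tested genes, 3.70% had a log2 ratio as low or lower. It is read by a single probe, and without replicate 3 its log2 ratio was -0.74 (adjusted p = 0.00106 in limma).

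RbohA (Os01g0734200) is the rice homologue of the phagocyte oxidase subunit through which the plant family was first found, and 3 probes read it. On its brightest probe, X93301, the normalized log2 level was 11.20, 11.53 and 11.96 in water and 10.63, 10.99 and 11.49 under vanadate. The levels of the channels overlapped, because the arrays differed in level, yet the vanadate level was the lower on each array. The log2 ratio was -0.58, -0.54 and -0.47, an SD of 0.05 over arrays, with a mean of -0.53 ± 0.08 (SE, limma adjusted p = 0.00212), 1.44-fold lower. Probe AK103747 gave -0.43, -0.49 and -0.70, with a mean of -0.54 ± 0.09 (SE, limma adjusted p = 0.00337). The dimmest probe, AF015302, was also below 0 on every array, at -0.09, -0.37 and -0.32, and missed the threshold (limma adjusted p = 0.0512). It was called lower under 7 of 14 alternatives, among them the slide as a block (limma adjusted p = 0.0389), channels as separate samples with the replicate block (limma adjusted p = 0.0344) and the processed signals (-0.64, limma adjusted p = 0.00878). Without replicate 3 the brightest probe was at -0.56 (adjusted p = 0.00239 in limma).

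RbohB (Os01g0360200), whose N-terminal region is known to bind the rice Rac1 GTPase, is read by 4 probes that fell into pairs. On AY603975, the brightest, the normalized log2 level was 11.39, 10.89 and 11.30 in water and 11.02, 10.71 and 10.89 under vanadate. The channels overlapped, and the vanadate level was the lower on each array. Its log2 ratio of -0.37, -0.19 and -0.40 had a mean of -0.32 ± 0.08 (SE, limma adjusted p = 0.0206), 1.25-fold lower. AK060770 was called lower too, at -0.37 ± 0.09 (SE, limma adjusted p = 0.0149). The dimmer probes were not called, AK121916 at -0.10 ± 0.12 (SE, limma adjusted p = 0.49) and AK065117 at 0.11 ± 0.09 (SE, limma adjusted p = 0.35). The call on the brightest probe was lost when replicate 1 (-0.30, limma adjusted p = 0.0755) or replicate 3 (-0.28, limma adjusted p = 0.0603) was left out. It was also lost when the 4 probes were averaged, at a log2 ratio of -0.17 (adjusted p = 0.153 in limma).

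The direction of RbohG (Os09g0438000) was not settled by its 2 probes. Probe AK109935 was called higher at a log2 ratio of 0.30 ± 0.08 (SE, limma adjusted p = 0.0195), with 0.31, 0.24 and 0.35 on replicates 1, 2 and 3. Its normalized log2 level was 8.11, 8.05 and 8.64 in water and 8.42, 8.29 and 8.99 under vanadate, so the channels overlapped although vanadate was the higher on each array. The brighter probe, AK120739, had log2 ratios of -0.18, -0.59 and -0.56 and was left out of the test, since the scanner software marked its replicate 1 spot as non-uniform in the vanadate channel. With such spots kept, AK120739 represented RbohG, which was then called lower at -0.44 (adjusted p = 0.014 in limma). The call of AK109935 was itself lost when any 1 replicate was left out, at adjusted p of 0.0561 to 0.0821 in limma, and the log2 ratio without replicate 3 was 0.27.

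RbohC (Os05g0528000) was not called. Its normalized log2 level was 11.19, 11.45 and 11.20 in water and 11.65, 11.53 and 11.37 under vanadate, with overlap between the channels. The log2 ratio was 0.45, 0.07 and 0.17, above 0 on all 3 arrays, with a mean of 0.23 ± 0.10 (SE, limma adjusted p = 0.0929). Its 95% confidence interval ran from -0.0044 to 0.47, so neither equality nor a rise of up to 1.39-fold lies outside it. Without replicate 3 the log2 ratio was 0.26 (limma adjusted p = 0.108).

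RbohE (Os01g0835500) was not called on its brightest probe, AK066013, whose arrays went in different directions. Its normalized log2 level was 10.08, 10.49 and 10.48 in water and 10.40, 10.53 and 10.06 under vanadate, with overlap between the channels. The log2 ratio was 0.32 on replicate 1, 0.04 on replicate 2 and -0.42 on replicate 3, with a mean of -0.02 ± 0.14 (SE, limma adjusted p = 0.92). Its 95% confidence interval, from 0.778-fold to 1.25-fold, leaves room for a change in either direction. Probe AK068400 was called higher at 0.28 ± 0.09 (SE, limma adjusted p = 0.0424) and AK100241 was at 0.29 ± 0.12 (SE, limma adjusted p = 0.0813). The call of AK068400 was lost under 6 of 14 alternatives, among them without replicate 1 (0.20, limma adjusted p = 0.157), without replicate 2 (0.29, limma adjusted p = 0.145) and under median centring (0.16, limma adjusted p = 0.489). AK100241 became called higher without replicate 3 (0.44, limma adjusted p = 0.0118) and with the slide as a block (limma adjusted p = 0.0219). Without replicate 3 the brightest probe turned to 0.18 and was still not called (limma adjusted p = 0.22). On each of the 3 probes replicate 1 gave the highest and replicate 3 the lowest ratio. Replicate 3 is the array with the green shoot signal in water, whose part in this order was not tested.

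RbohD (Os05g0465800) did not stand well above background on any array, in water or in vanadate. Its spot exceeded the local background by 122.5, 120 and 61.5 intensity units in water and by 8.5, 23 and 9.5 in vanadate on replicates 1, 2 and 3. The medians of the negative control spots were 97, 93 and 52 in water and 4.5, 4 and 3 in vanadate. The RbohD spot thus lay a little above the median of spots without rice sequence. The spread of those spots was not compared, so a signal of RbohD is not shown. No fold is given for RbohD.

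Over all tested probes of the family, 4 were called higher, 5 lower and 6 in neither direction. The corresponding shares of all 31139 tested probes were 28.4% higher and 20.8% lower. In the reported values RbohH had the highest ratio on each array, RbohI the next and RbohF the lowest, with RbohA the next above it, while RbohI had a higher mean than RbohH in the authors' value table and with the processed signals. The gap between RbohI and the gene ranked after it was 1.01 to 1.60 on the log2 scale on the 3 arrays, while every other gap between neighbours averaged 0.07 to 0.30. The order of RbohG, RbohC, RbohE and RbohB differed between arrays, and the gaps between neighbours among these 4 were smaller than their SD over arrays. Sequences of the probes were not used here, so cross-hybridisation between family members was not tested.

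**Figure D3:**
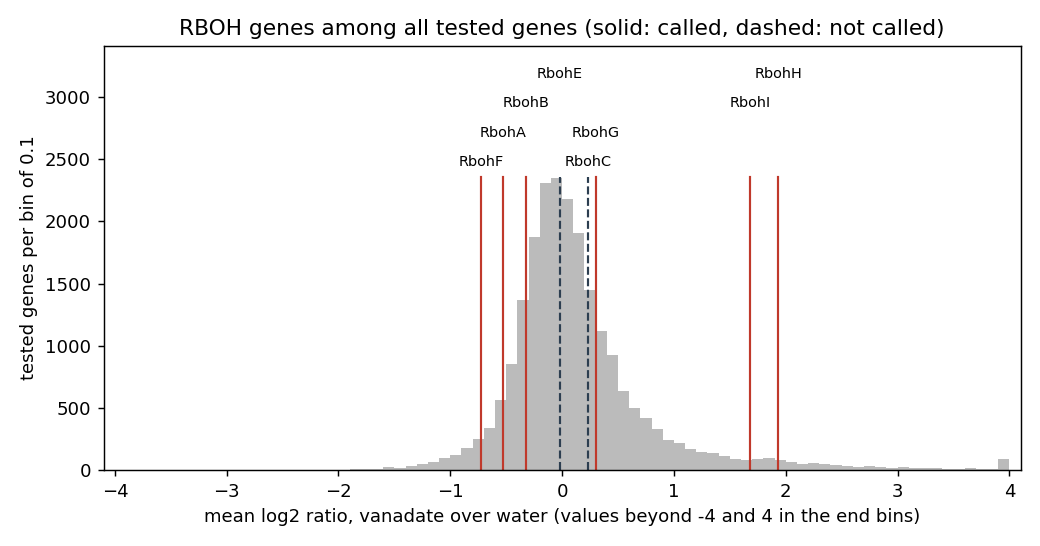
Number of tested genes (vertical axis) by mean log2 ratio of vanadate over water (horizontal axis, bins of 0.1), with a line at the value of each tested RBOH gene, solid where called and dashed where not. RbohH and RbohI lie in the upper tail, RbohF and RbohA toward the lower tail, and the other 4 within the bulk of all genes.

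The median over tested genes was -0.11 on the log2 scale with the processed signals and 0.02 in the reported values, and the balance of calls turned. Of all called genes 58.5% were higher in the reported values and 42.1% with the processed signals. Taken relative to the median of each setting, RbohH was at 1.91 and 2.34, RbohI at 1.66 and 2.53, RbohA at -0.55 and -0.55 and RbohF at -0.75 and -0.82 in the reported and the processed values. The direction of these 4 genes held in both. RbohG lost its call with the processed signals (0.18, adjusted p = 0.13 in limma) and under median centring (0.21, adjusted p = 0.317 in limma).

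**Figure D4:**
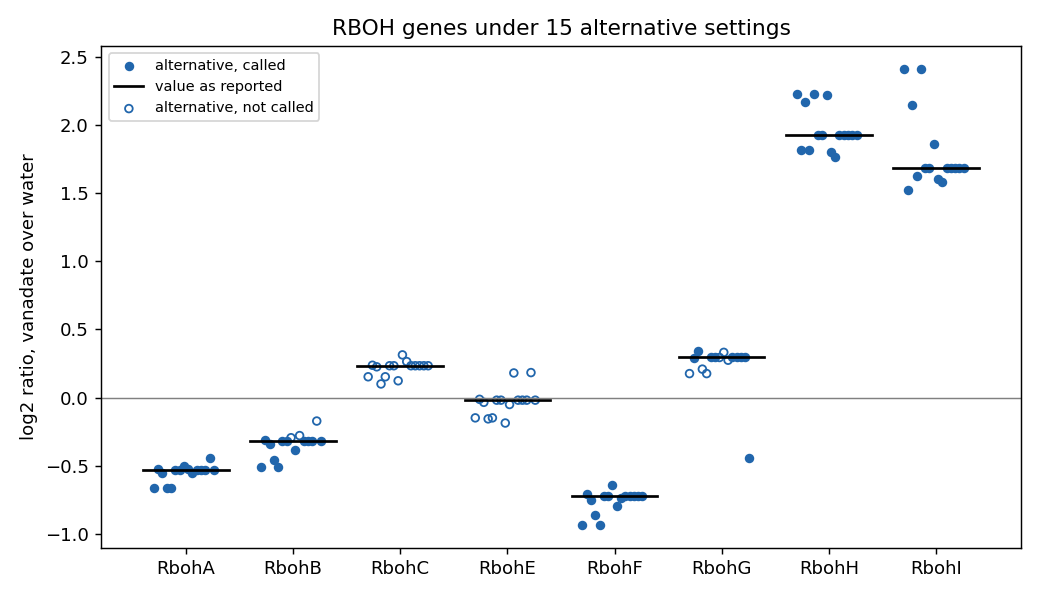
Log2 ratio (vertical axis) of each tested RBOH gene in the reported analysis (black bar) and under 15 alternative settings (points, filled where the adjusted p was under 0.05). All points of RbohA, RbohF, RbohH and RbohI are filled and stay on their side of 0, while RbohG has 1 filled point below 0.

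The oxidases are activated by other proteins, and 3 lists of such partners and relatives were examined. The locus IDs were taken from background knowledge and not checked against an annotation. All 3 lists were chosen with earlier results of these data known. Their shares beside those of all genes therefore describe these loci only and are no independent support. Of 7 loci listed as Rac/ROP small GTPases, all tested, 5 fell, 0 rose and 2 were not called. Of all genes 20.7% fell. The list's median log2 ratio was -0.32, against 0.02 for all genes. Os02g0312600 fell furthest, with -1.25, -1.52 and -1.55 on replicates 1, 2 and 3 and a mean of -1.44 ± 0.09 (SE, limma adjusted p = 6.94e-05), 2.71-fold lower, and its other probe was at -0.97. Os06g0234200 was 2.10-fold lower on its brightest probe at -1.07 ± 0.08 (SE, limma adjusted p = 0.000126), while its other 3 probes gave only -0.12 to -0.29. Os02g0742200 was 1.46-fold lower at -0.55 ± 0.08 (SE, limma adjusted p = 0.00194), and all 3 of its probes were called lower. The other falls were small. Os02g0834000 was at -0.32 ± 0.09 (SE, limma adjusted p = 0.0294), a call that was lost when replicate 1 (adjusted p = 0.116) or replicate 2 (adjusted p = 0.113) was left out. Os05g0513800 was at -0.32 ± 0.08 (SE, limma adjusted p = 0.0176), a call that median centring (adjusted p = 0.0518) and leaving out replicate 2 (adjusted p = 0.126) each ended. Its other tested probe was not called, at -0.19 (limma adjusted p = 0.113). The count of falls was 3 without replicate 2 and 4 under median centring. Os01g0229400 at -0.26 and Os02g0120800 at -0.06 were not called on their brightest probes. Of the other probes of Os02g0120800, AK069443 was called lower at -0.29 (limma adjusted p = 0.023) and AK100842, at -0.10, was not called. The other probe of Os01g0229400 was at -0.0017 and not called.

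Of 6 loci listed as kinases and a scaffold protein upstream of the oxidases, 4 rose, 0 fell and 2 were not called, while 29.1% of all genes rose. Their median log2 ratio was 0.78. Os05g0110900 rose 4.01-fold, with 1.94, 2.00 and 2.06 on replicates 1, 2 and 3 and a mean of 2.00 ± 0.08 (SE, limma adjusted p = 1.02e-05). Os02g0685900 rose 1.94-fold at 0.95 ± 0.08 (SE, limma adjusted p = 0.000252). Os04g0584600 rose 1.89-fold at 0.92 ± 0.09 (SE, limma adjusted p = 0.000357), and its other tested probe was at 1.37. Os08g0538300 rose 1.57-fold at 0.65 ± 0.08 (SE, limma adjusted p = 0.00127). Os05g0372100 at 0.08 and Os01g0686800 at -0.15 were not called. Under every alternative setting run, 4 of these loci rose and 0 fell. The 2 loci listed as ferric reductases, which share the oxidases' electron-carrying core, did not stand well above background with any of their 5 probes on any array and were not tested.

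**Figure D5:**
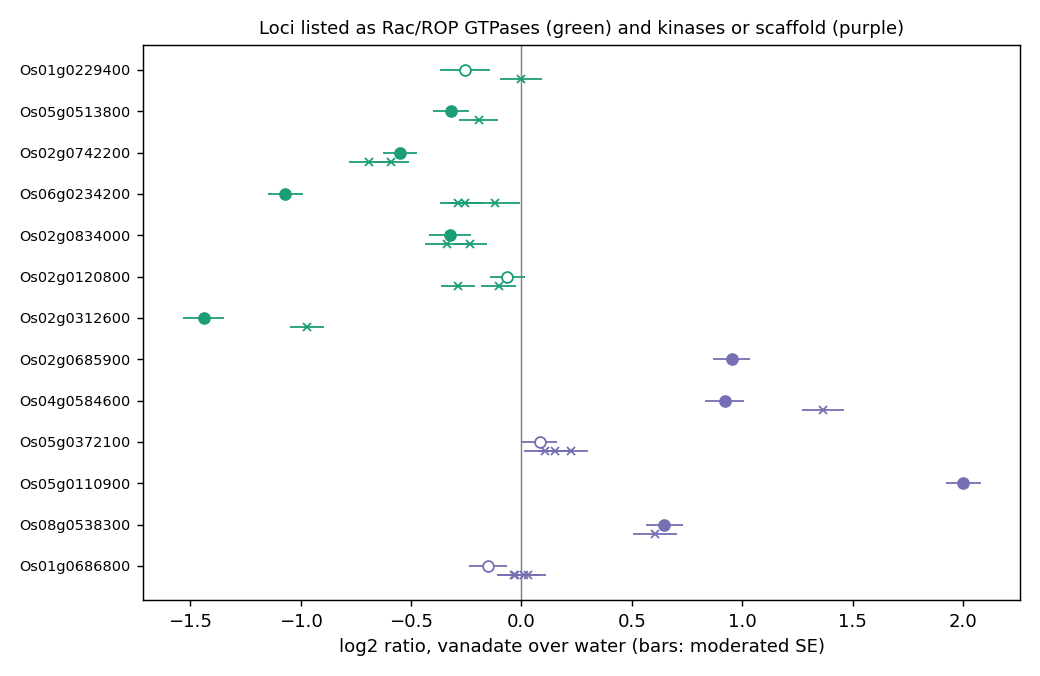
Log2 ratio of vanadate over water (horizontal axis, bars are the moderated SE) of every tested probe of the loci listed as Rac/ROP GTPases (green) and as kinases or scaffold (purple). A circle, filled where called, marks the brightest tested probe of a locus, and crosses mark its other tested probes. Every green circle lies below 0, and 4 of the 6 purple circles are filled and lie above 0.

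The genes outside the family whose 3 log2 ratios lay nearest to those of RbohH, by Euclidean distance over the arrays among 22132 genes, were Os07g0551500, Os06g0604300 and Os05g0427400, at distances of 0.16, 0.21 and 0.28. Their log2 ratios were 1.89 ± 0.15, 1.98 ± 0.17 and 1.87 ± 0.16 (SE, limma adjusted p = 0.000169, 0.000261 and 0.000212). Since these genes were picked for ratios like those of RbohH, the values follow from the selection and are no separate support. RbohH was taken for this as the called member with the largest change in the reported values, and the likeness rests on 3 arrays only.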

How the data were processed

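Per the file headers, the deposited scanner files hold spot intensity values made by Feature Extraction 10.7.1.1, Agilent's scanner software: median spot and median local background intensity, uncorrected, and a processed signal that the software had background-subtracted and dye-normalized. The values in the authors' deposited table are log2 ratios, of which at least 99.9% per array lay within 0.001 of log2 processed red over green. It is uncentred, with medians of -0.19, -0.21 and -0.05 on replicates 1, 2 and 3. How it was made is otherwise not given in the sources used here.

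Here, background was corrected by normexp (offset 50) and ratios normalized by loess within arrays, in limma 3.58.1 under R 4.3.3. Control spots had weight 0 and were then left out, as were outlier-marked spots. These numbered 172, 129 and 958 of 43144 gene spots on replicates 1, 2 and 3, so replicate 3 had the most. No spot was saturated. A probe was tested if it had a value on 3 arrays and, on 2 or more of them, stood well above background in water or vanadate. The mean was tested against 0 (lmFit, eBayes), and p-values of all 31139 probes were adjusted by Benjamini-Hochberg. Where several probes of a gene were tested, the brightest by mean intensity stands for it. Levels are log2 channel intensities after loess and Aquantile. SE is limma's moderated standard error. The array itself pairs vanadate with water.

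The members and lists were chosen with earlier results of these data known. Named were all family members with every probe, every called gene of the partner lists, and the 3 genes nearest to the called member with the largest change. The planned count of promoter motifs was not run, since promoter sequences were not used here.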

Additional observations from a re-analysis of the deposited data

How the results depend on the processing

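The alternatives covered background correction, normalization, the filter on dim probes, each replicate left out, the slide as a block, channels as separate samples, an intensity trend in the variance, the mean over probes, the authors' value table and, chosen after seeing the data, keeping outlier-marked spots. RbohA, RbohF, RbohH and RbohI kept direction and call under all 15, at log2 ratios of -0.66 to -0.44, -0.94 to -0.64, 1.77 to 2.23 and 1.52 to 2.42. Called oxidases numbered 2 to 3 higher and 2 to 4 lower. RbohG reversed to -0.44 with outlier-marked spots kept. Of the RBOH probes, 2 were called higher under median centring, in the authors' value table and with the processed signals, against 4 as reported. Leaving out 1 replicate gave 2 to 4 such probes, with 2 without replicate 1 and 2 without replicate 2. Of the Rac/ROP loci, 3 to 5 fell when 1 replicate was left out. Over all genes, 4216 rose under median centring against 6443 as reported. Falls numbered 6864 both in the authors' value table and with the processed signals, against 4573, and 2797 to 3768 with 1 replicate left out, the lowest without replicate 2. With channels as separate samples and the array as the replicate block (intraspot correlation 0.714), 6500 genes rose and 4781 fell, and no call of an oxidase changed on its representative probe. With slide as a block, 7038 rose and 5244 fell. Signal over background limits RbohD, and 3 arrays without exchanged dyes limit every value.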
